A study of Rattus norvegicus with 9 samples.

Results

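Water leaves the nephron through aquaporins, membrane channels that let water, and in some cases glycerol, pass. In the proximal tubule and the thin descending limb the channel is Aqp1, which is always in the membrane. In the collecting duct, vasopressin binds its V2 receptor (Avpr2) on principal cells, cAMP rises, protein kinase A is switched on and vesicles that carry Aqp2 are moved to the apical membrane, while Aqp3 and Aqp4 let the water out on the basolateral side. The 9 genes described here are the aquaporins Aqp1, Aqp2, Aqp3, Aqp4, Aqp6, Aqp7 and Aqp11 and the vasopressin receptors Avpr2 and Avpr1a. They were chosen by name: every gene probe whose gene name in the raw array files is one of these was taken. This gave 11 probes for the 9 genes, 3 of them for Aqp4, of 30367 gene probes and 26115 gene names on the array. All 9 genes passed the filter on dim probes, among 13833 genes in all.

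Kidneys of Fisher F344 rats were taken after 20 min. of warm ischaemia, a model of donation after circulatory death. The NP group (non-perfused, 5 kidneys) is taken here as not perfused, as its treatment label says. The titles of the same arrays instead name Belzer solution, perfused at 4°C for 4 hrs, and the labels do not settle which holds. The methods of the study describe the arrayed controls as kidneys that were not perfused. The MSC group (4 kidneys) was perfused for 4 hrs at 4°C with Belzer solution, a cold preservation fluid, to which 3000000 mesenchymal stromal cells of EGFP transgenic Sprague Dawley rats had been added. By the treatment label the groups differ in the cold perfusion as well as in the cells, and the parts of these cannot be told apart. By the titles they would differ in the cells alone. Each array measured tissue of 1 kidney, so the SD of a group is the spread between kidneys together with that of labelling, hybridization and slide. The arrays lay on 2 slides: slide 1 held NP 1, 2 and 3 and MSC 1 and 2, and slide 2 held NP 4 and 5 and MSC 3 and 4. Values are normalized log2 intensities, and a difference is the mean of MSC less the mean of NP on that scale. An intensity depends on the probe as well as on the RNA, so no level of RNA is compared between probes. Intensity served to choose probes, both the 2 brightest of a list for naming and, in an alternative, the brightest probe of a gene. Where 1 probe is set against others, as for Aqp4 and Aqp2, only the change in that difference between kidneys is read.

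Over the whole array, limma called 0 of 13833 genes at an FDR under 0.05 with a fold over 1.5 in either direction, which is 0% higher and 0% lower. The study itself called Tmem52b and Calb1 higher in MSC kidneys at these thresholds, so the count of 0 departs from the published one. With the deposited log2 values it was also 0. At an unadjusted p under 0.05, 916 genes (6.62%) had a higher mean and 707 (5.11%) a lower mean in MSC kidneys. The groups did not overlap for 435 genes (3.14%) that were higher in all MSC kidneys and for 294 (2.13%) that were lower. Between 65.6% and 74.3% of the gene spots of an array were well above background. In whole tissue, fewer cells of a type and less RNA per cell cannot be told apart.

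All 9 genes were measured in every kidney, and none of them was called. Each of the 11 probes had all of its spots well above background on 9 of 9 arrays, and none of its spots was saturated, although the raw signal of Aqp2 reached 388935. The mean of 6 of the 9 genes was higher in MSC kidneys, beside 48.6% of all genes tested. The 6 became 4 without NP 2, 5 with median scaling or without MSC 1, and 7 with the brightest probe. At an unadjusted p under 0.05 there was 1, Aqp1, with a higher mean, beside the 6.62% of all genes. The groups overlapped for all 9. The median difference was 0.11 over the 9 genes and -0.01 over all genes tested. Over the 9 genes it was -0.02 without NP 2, 0.03 with median scaling and 0.20 without MSC 2. The fitted differences lay between -0.29 for Aqp4 and 0.42 for Avpr2, and both moved with single kidneys, as given with these genes.

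**Figure D1:**
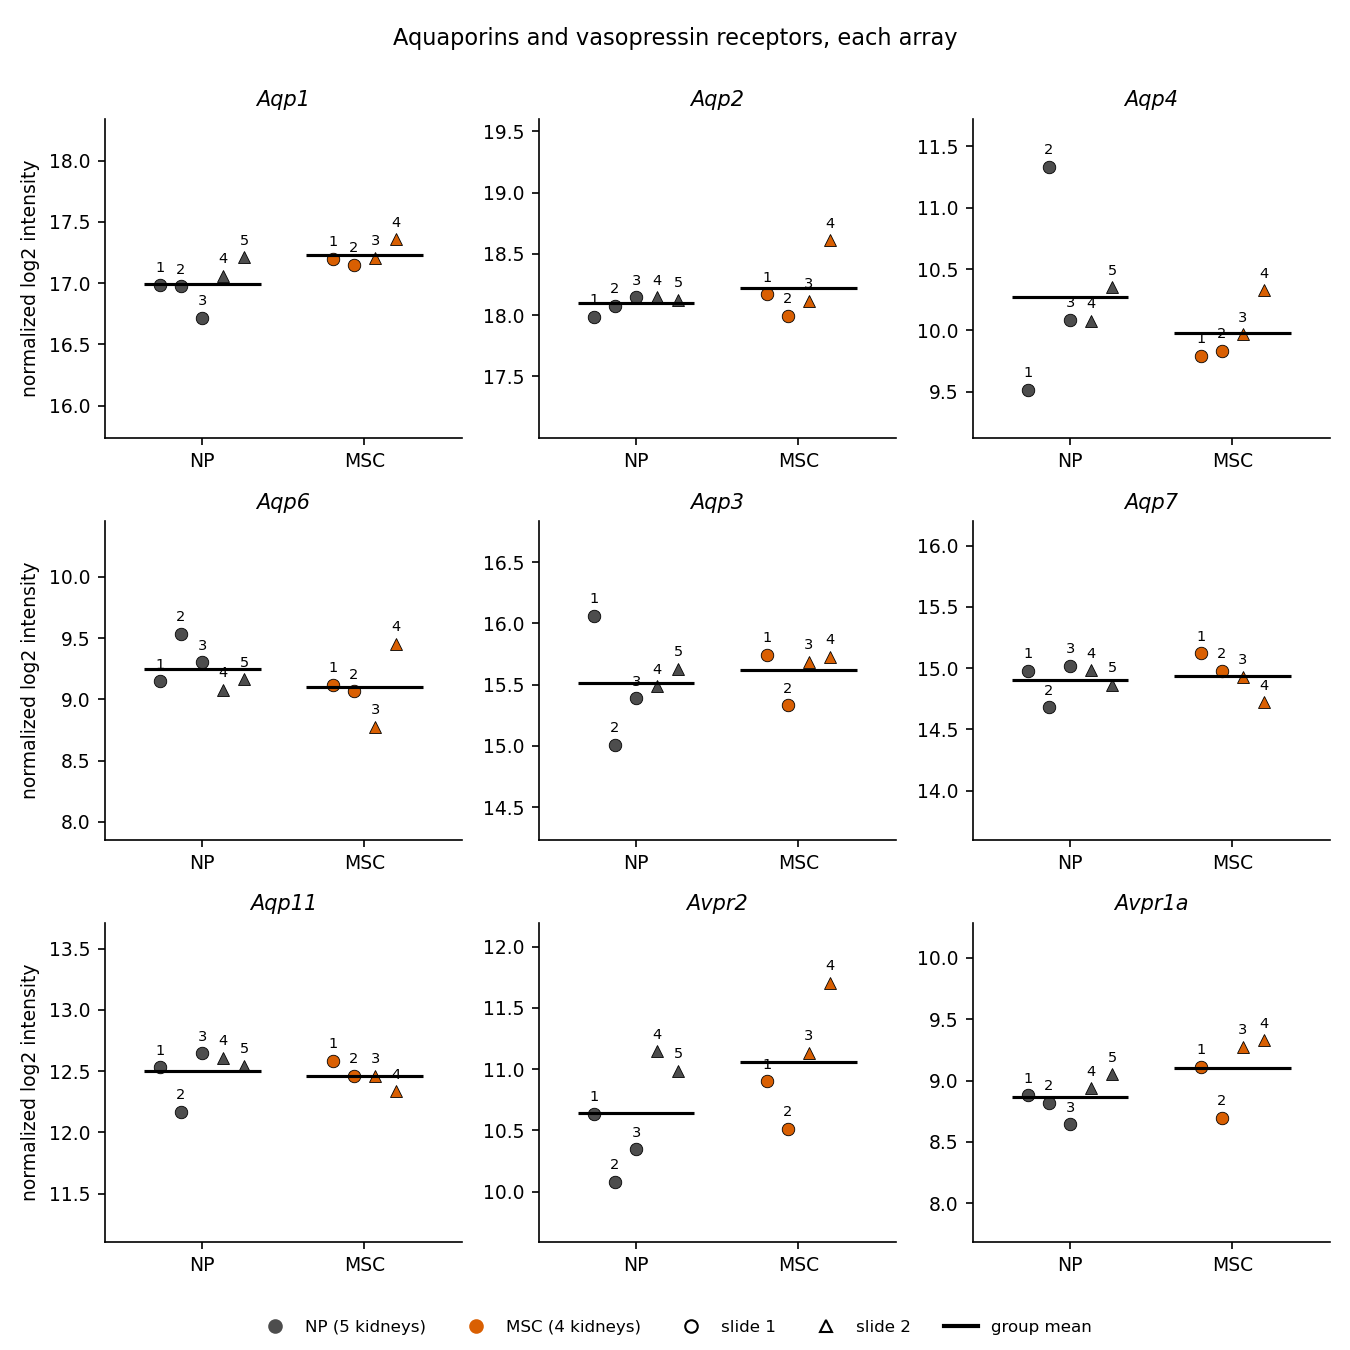
Normalized log2 intensity of the 9 genes, 1 panel a gene and 1 point a kidney, with NP kidneys in grey and MSC kidneys in orange, circles for slide 1, triangles for slide 2 and a line at the group mean. Numbers are the replicate numbers, and every vertical axis spans the same 2.6 log2 units around its own gene. The groups overlap in all 9 panels, NP 2 stands far above the others for Aqp4, and for Avpr2 the triangles lie above the circles.

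The probe sequences are shown since each value given is that of a probe, and since the Aqp4 probes are placed on separate stretches and annotated to 1 transcript. They are written 5′ to 3′. For Aqp4 (A_64_P018751), Avpr2 and Aqp11 the whole probe is given with a stop codon in capitals, taken from the frame whose first stop lies nearest the 3′ end. The Avpr1a and Aqp7 probes are given whole with no frame marked, and of the others the first 30 of 60 bases are given. All positions are those that the array files give on rn4.

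Aqp4 (A_64_P018751): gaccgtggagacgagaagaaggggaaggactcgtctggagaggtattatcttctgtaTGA
Aqp4 (A_64_P036063), first 30 bases: attcactataatccttcttccccctcagca
Aqp4 (A_44_P561166), first 30 bases: atcacccagatcacgataaacctgcaactt
Avpr2 (A_64_P031890): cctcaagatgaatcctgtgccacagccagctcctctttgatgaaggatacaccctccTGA
Avpr1a (A_43_P12751): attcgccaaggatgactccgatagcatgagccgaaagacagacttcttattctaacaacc
Aqp11 (A_44_P274083): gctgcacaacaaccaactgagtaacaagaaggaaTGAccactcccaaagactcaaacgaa
Aqp7 (A_44_P121063): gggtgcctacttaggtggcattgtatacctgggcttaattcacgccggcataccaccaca
Aqp1 (A_44_P299247), first 30 bases: ccactggcatagtacagctgcatactcttc
Aqp2 (A_64_P007189), first 30 bases: ggactgtcattcccgctttggccttcttct

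The reading frame of the Aqp4 probe A_64_P018751 and that of the Avpr2 probe each ran through 19 codons to a TGA at the last base of the probe. The Aqp11 probe held 11 codons, a TGA and 23 bases beyond it. The 60 letters of the Avpr1a probe were placed on 59 bases of the genome, so at least 1 base of that probe has no partner there.

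Aqp1, the constitutive water channel of the proximal tubule, the thin descending limb and the vessels beside it, was read by a probe on chr4:84110125-84110184 (plus strand). In NP kidneys 1 to 5 it measured 16.99, 16.97, 16.72, 17.06 and 17.21, and in MSC kidneys 1 to 4 it measured 17.20, 17.15, 17.21 and 17.36. NP 3 was the lowest and MSC 4 the highest, and NP 5 lay among the MSC kidneys. The mean was 16.99 ± 0.18 (SD, n = 5) in NP and 17.23 ± 0.09 (SD, n = 4) in MSC kidneys, a 1.18-fold difference with a 95% interval of 1.01-fold to 1.38-fold. In limma the difference of 0.24 had an SE of 0.10, an unadjusted p of 0.0433 and an FDR of 0.416. With slide as a block the difference was 0.22, with an unadjusted limma p of 0.0320 and an FDR of 0.355, in a fit that put 6.98% of all genes at a higher and 5.73% at a lower mean with an unadjusted p under 0.05. The unadjusted p of Aqp1 was under 0.05 in 7 of 22 other settings run, and its difference was positive in all 22, from 0.15 to 0.29. Among the 7 were no filter, the filter on well above background, the brightest probe and the mean of probes. These cannot change the difference of a gene with 1 probe, which stayed at 0.24. The replicate block and leaving out NP 5 gave the same difference, 0.29. The array carries the Aqp1 probe 10 times, and over the 9 arrays the median SD of these spots was 0.08, which covers spots of 1 array and not labelling or hybridization.

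Markers of the cells that make Aqp1 were measured beside it. Of 10 proximal tubule markers, all tested, 1 had an unadjusted p under 0.05 with a higher mean, beside 6.62% of all genes, the glucose cotransporter Slc5a2 (difference 0.44, unadjusted p 0.00574, FDR 0.331), and their median difference was 0.15. Of the others, the lactate cotransporter Slc5a12 had a difference of 0.51 (FDR 0.508) and the gluconeogenic enzyme Fbp1 one of 0.13 (FDR 0.752). Of the 10 means, 7 were higher and 3 lower in MSC kidneys. The mean level of the 10, centred on the 9 arrays, ran from -0.43 to 0.09 in NP and from 0.05 to 0.13 in MSC kidneys. Of 8 markers of the thin limb and inner medulla, all tested, 2 were at an unadjusted p under 0.05 with a higher mean, beside 6.62% of all genes, the claudin Cldn4 (0.78, FDR 0.331) and the tetraspanin Tspan8 (0.27, FDR 0.418), and the median difference was 0.16. Of the 10 endothelial markers 9 were tested, with a median difference of 0.08 and 0 at an unadjusted p under 0.05. Red cells also carry Aqp1: of 10 red cell markers 8 were on the array and 6 were tested, and 4 of these, among them the globins Hba1 and Hbb-b1 and the haem enzyme Alas2, had a lower mean in MSC kidneys at an unadjusted p under 0.05, beside 5.11% of all genes. That count was 1 with the brightest probe of each gene, 2 with the mean of probes, 1 without NP 4 or MSC 3, and 2 without NP 1, NP 5 or MSC 1. The centred level of the red cell markers was -2.17, 0.47, -0.86 and 0.03 in MSC kidneys 1 to 4, against 0.17 to 0.93 in NP kidneys, and Aqp1 in MSC 1 and MSC 3 was 17.20 and 17.21. The part of these cells in the Aqp1 values was not tested.

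Aqp2, the vasopressin-regulated channel of the principal cell, was read on chr7:138330832-138330891 (plus strand). It measured 17.99, 18.08, 18.15, 18.14 and 18.13 in NP kidneys 1 to 5 and 18.17, 17.99, 18.12 and 18.61 in MSC kidneys 1 to 4. Of the 9 kidneys 8 lay between 17.99 and 18.17, and MSC 4 stood above them. The mean was 18.10 ± 0.07 (SD, n = 5) in NP and 18.22 ± 0.27 (SD, n = 4) in MSC kidneys. The limma difference of 0.13 (SE 0.12, FDR 0.701) had a 95% interval from -0.14 to 0.39, or 0.906-fold to 1.31-fold. Without MSC 4 it was -0.004.

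Other genes of the principal cell were measured in the same kidneys. Of 10 marker genes of this cell, all tested, 7 had a higher mean in MSC kidneys at an unadjusted p under 0.05 and 0 a lower one, beside 6.62% and 5.11% of all genes. The median difference of the 10 was 0.39, and 0 of them passed the FDR. The sodium channel subunit Scnn1b measured 11.56, 10.34, 10.47, 10.98 and 11.31 in NP kidneys 1 to 5 and 11.85, 11.89, 11.77 and 12.09 in MSC kidneys 1 to 4. All MSC kidneys were above all NP kidneys, and the difference was 0.97 (SE 0.24, unadjusted p 0.00217, FDR 0.331). Scnn1g, another subunit of that channel, had a difference of 0.61 (SE 0.20, FDR 0.331), and Hsd11b2, which inactivates glucocorticoids in these cells, one of 0.63 (SE 0.21, FDR 0.333). The keratin Krt8 had a difference of 0.43 (SE 0.13, FDR 0.331). Hsd11b2 and Fxyd4, a regulator of the sodium pump, were the brightest of the list, and Fxyd4 had a difference of -0.09 (FDR 0.891). Leaving out 1 array at a time, 4 to 7 of the 10 markers were at an unadjusted p under 0.05, 4 without NP 3, MSC 2 or MSC 4, and with median scaling there were 2.

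Markers of the thick ascending limb, which lies before the collecting duct and lets no water through, were measured as well. Of 8, all tested, 2 had a higher mean in MSC kidneys at an unadjusted p under 0.05, Egf (1.37, FDR 0.331) and the salt cotransporter Slc12a1 (0.50, FDR 0.391), and 1 a lower mean, the transcription factor Irx1 (-0.34, FDR 0.336), beside 6.62% and 5.11% of all genes. Their median difference was 0.15. Umod and Ppp1r1a had differences of 0.15 (FDR 0.792) and 0.15 (FDR 0.640).

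Aqp2 less the mean of the 10 principal cell markers was compared between the groups after both had been seen. This log2 quantity was 5.53, 6.15, 6.08, 5.91 and 5.71 in NP kidneys 1 to 5 and 5.54, 5.48, 5.56 and 5.86 in MSC kidneys 1 to 4. The groups overlapped, since NP 1 lay with the MSC kidneys and MSC 4 with the NP kidneys. The mean was 5.88 ± 0.26 in NP and 5.61 ± 0.17 in MSC kidneys, a difference of -0.27 with an exact two-sided permutation p of 0.127 over 126 splits, where the smallest possible p is 0.00794. At this p a difference between Aqp2 and the markers was not shown.

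Aqp3 lets water and glycerol leave the principal cell on its basolateral side, and its probe lies on chr5:58501847-58501906 (minus strand). It measured 16.06, 15.01, 15.39, 15.49 and 15.63 in NP kidneys 1 to 5 and 15.74, 15.33, 15.69 and 15.73 in MSC kidneys 1 to 4. NP kidneys covered the whole range of MSC kidneys, with NP 1 highest and NP 2 lowest of all. The mean was 15.52 ± 0.38 (SD, n = 5) in NP and 15.62 ± 0.20 (SD, n = 4) in MSC kidneys, and the difference of 0.11 (SE 0.19, FDR 0.856) had a 95% interval from -0.31 to 0.52. Its 10 spots had a median SD of 0.11 on an array.

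Aqp4, the other basolateral channel of the principal cell, was the one gene with more than 1 probe, and its probes differed in the sign of the difference. All 3 read chromosome 18 on the minus strand and 1 transcript, from base 986 (A_64_P018751, chr18:6630285-6630344), base 1609 (A_64_P036063, chr18:6629662-6629721) and base 4840 (A_44_P561166, chr18:6626431-6626490) on. A_64_P036063, kept for the gene since it varied most, measured 9.51, 11.33, 10.08, 10.08 and 10.35 in NP kidneys 1 to 5 and 9.79, 9.83, 9.97 and 10.33 in MSC kidneys 1 to 4. NP 2 stood above the other 8 kidneys, the next of which was NP 5 at 10.35. The difference was -0.29 (SE 0.30, FDR 0.732), with a 95% interval from -0.97 to 0.39, and without NP 2 it was -0.03.

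The coding-end probe A_64_P018751 measured 9.57, 10.87, 10.04, 9.78 and 10.21 in NP kidneys 1 to 5 and 10.11, 9.63, 9.87 and 10.15 in MSC kidneys 1 to 4. NP 2 was again the highest, and the difference was -0.15 (SE 0.24, FDR 0.835 over all probes). The far 3′ probe A_44_P561166 measured 12.71, 13.10, 12.83, 12.62 and 13.00 in NP kidneys 1 to 5 and 13.11, 12.62, 13.09 and 13.31 in MSC kidneys 1 to 4. Here MSC 4 was the highest, NP 2 did not stand apart, and the difference was 0.18 (SE 0.15, FDR 0.654 over all probes). Of the 11 probes of the 9 genes, that of Aqp1 alone was at an unadjusted p under 0.05, beside 6.5% of all probes tested with a higher and 5.16% with a lower mean. Over the 9 arrays the first pair of Aqp4 probes had a Pearson's r of 0.92 with each other, while the far probe had one of 0.64 with A_64_P018751 and 0.45 with A_64_P036063.

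Within each kidney, A_44_P561166 less the mean of the other 2 probes was 3.17, 2.00, 2.77, 2.69 and 2.72 in NP 1 to 5 and 3.15, 2.89, 3.18 and 3.07 in MSC 1 to 4. NP 2 had the smallest gap and NP 1 lay among the MSC kidneys. The mean gap was 2.67 ± 0.42 in NP and 3.07 ± 0.13 in MSC kidneys, a difference of 0.40 with an exact two-sided permutation p of 0.0714 over 126 splits. Without NP 2 the difference was 0.23 and the exact two-sided permutation p 0.114 over 70 splits. This comparison was chosen after the values were seen.

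**Figure D2:**
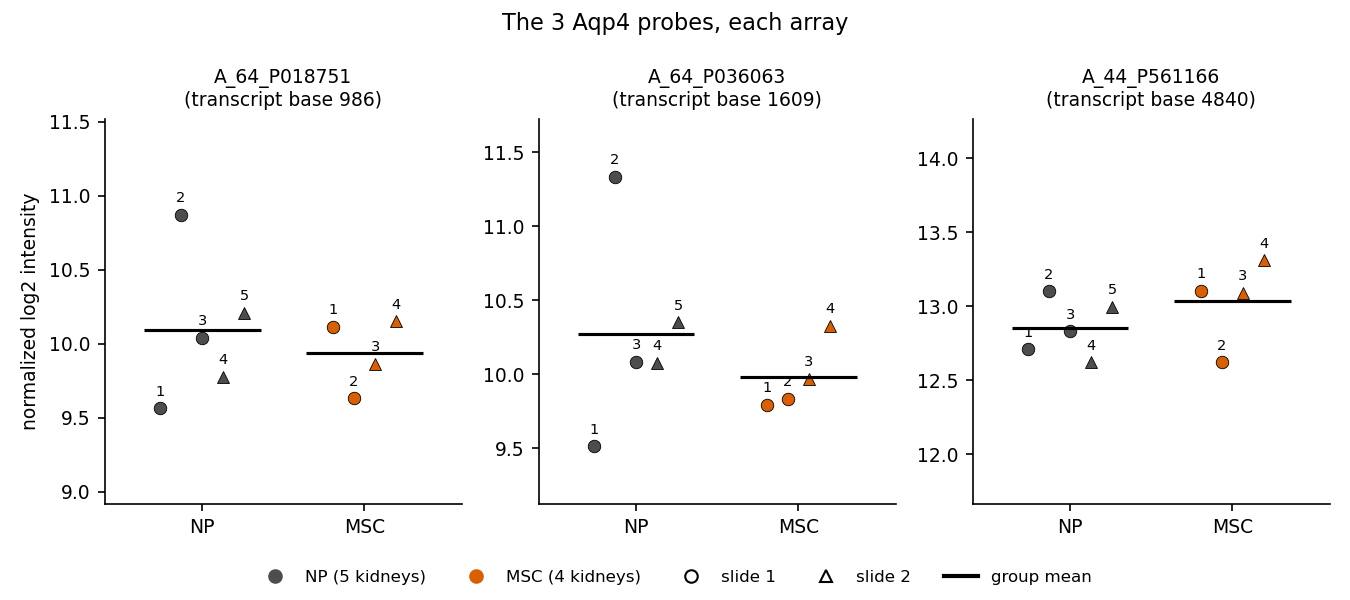
Normalized log2 intensity of the 3 Aqp4 probes in the order of their place in the transcript, 1 point a kidney, with NP kidneys in grey, MSC kidneys in orange, circles for slide 1, triangles for slide 2 and a line at the group mean. NP 2 is far above the other kidneys with the probes at bases 986 and 1609, at 10.87 and 11.33, and within the range of the others with the probe at base 4840, at 13.10.

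Aqp6 is held in vesicles inside intercalated cells, the acid-secreting neighbours of principal cells, and its probe lies 19102 bases from that of Aqp2 on chr7:138349934-138349993. It measured 9.15, 9.53, 9.30, 9.08 and 9.16 in NP kidneys 1 to 5 and 9.12, 9.07, 8.78 and 9.45 in MSC kidneys 1 to 4. MSC kidneys held both a value near the top, in MSC 4, and the lowest, in MSC 3, and the difference was -0.14 (SE 0.14, FDR 0.719, 95% interval -0.46 to 0.17). Of 10 intercalated cell markers, all tested, 6 had a higher mean in MSC kidneys at an unadjusted p under 0.05, beside 6.62% of all genes, with a median difference of 0.63, and 0 passed the FDR. Among the 6 were the proton pump subunits Atp6v0d2 (0.76, FDR 0.331) and Atp6v1g3 (0.74, FDR 0.331) and the ammonia channel Rhbg (0.70, FDR 0.331). The brightest of the list, the proton pump subunit Atp6v0a4 and the carbonic anhydrase Car2, had differences of 0.16 (FDR 0.616) and 0.09 (FDR 0.699). Whether Aqp6 differed from these markers was not tested.

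Aqp7, a glycerol channel of the straight proximal tubule and of fat cells, was read on chr5:58433937-58433996, with its probe 67910 bases from that of Aqp3. It measured 14.98, 14.68, 15.02, 14.98 and 14.87 in NP kidneys 1 to 5 and 15.12, 14.98, 14.93 and 14.72 in MSC kidneys 1 to 4. MSC 1 was the highest and NP 2 the lowest, and the difference of 0.03 (SE 0.11, FDR 0.927) had a 95% interval from -0.20 to 0.27. Fat cell markers were high in some MSC kidneys: of 10 markers 7 were tested, all with a higher mean in MSC kidneys and 2 at an unadjusted p under 0.05 (Adipoq and Cidec), beside 48.6% and 6.62% of all genes. Their centred level was 2.31 in MSC 3 and 1.62 in MSC 4 against at most 0.10 in the other 7 kidneys. Without MSC 1 there were 5 at that p, with a median difference of 1.88, and without MSC 3 the median difference was 0.67, against 1.43 with all arrays. Over all 10 markers, with no filter on low intensity, it was 0.80. Aqp7 in MSC 3 and MSC 4 was 14.93 and 14.72, and the part of fat cells in the Aqp7 values was not tested.

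Aqp11, an unorthodox aquaporin of the endoplasmic reticulum of proximal tubule cells, was read on chr1:154974018-154974077. It measured 12.53, 12.17, 12.65, 12.61 and 12.54 in NP kidneys 1 to 5 and 12.59, 12.46, 12.46 and 12.33 in MSC kidneys 1 to 4. NP 2 was the lowest, and the other 8 kidneys lay between 12.33 and 12.65. The difference was -0.04 (SE 0.11, FDR 0.912), with a 95% interval from -0.28 to 0.20.

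Avpr2, the V2 receptor that raises cAMP in the collecting duct, was read on chrX:159823429-159823488. It measured 10.64, 10.08, 10.35, 11.15 and 10.99 in NP kidneys 1 to 5 and 10.90, 10.51, 11.13 and 11.70 in MSC kidneys 1 to 4. On slide 1 the kidneys lay between 10.08 and 10.90 and on slide 2 between 10.99 and 11.70, so the slides did not overlap while the groups did. The difference between the groups was 0.42 (SE 0.27, unadjusted p 0.148, FDR 0.556), or 1.34-fold with a 95% interval from 0.884-fold to 2.03-fold. It was 0.21 without MSC 4, 0.61 without MSC 2 and 0.09 with array weights. Slide 2 was above slide 1 by 0.71 (SE 0.16), with an unadjusted limma p of 0.00153 and an FDR of 0.106, beside 7.21% of all genes higher and 6.67% lower on slide 2 at an unadjusted p under 0.05. Within slide 1 MSC kidneys were higher by 0.35 and within slide 2 by 0.35, and with slide as a block the difference was 0.35, with an unadjusted limma p of 0.0529 and an FDR of 0.397. The probe was on each array 2 times, and the median SD of these spots was 0.02.

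Avpr1a, the V1a receptor, which acts through calcium in vessels and in parts of the tubule, was read on chr7:62229240-62229298. It measured 8.88, 8.82, 8.64, 8.94 and 9.05 in NP kidneys 1 to 5 and 9.11, 8.70, 9.28 and 9.33 in MSC kidneys 1 to 4. These values were close to the filter limit of 8.75 to 8.87, and the mean of its 10 spots exceeded it in 4 of 5 NP and 3 of 4 MSC kidneys. NP 3 and MSC 2 were the lowest and MSC 3 and MSC 4 the highest. The difference was 0.24 (SE 0.14, unadjusted p 0.116, FDR 0.525), and without MSC 2 it was 0.37. Slide 2 was above slide 1 by 0.30 (unadjusted limma p 0.0197, FDR 0.255), and MSC kidneys were higher by 0.12 within slide 1 and by 0.31 within slide 2. The other 7 genes had an unadjusted p for the slide of 0.0652, for Aqp1, or more. Of 6 smooth muscle markers tested, of 8 listed, 0 were at an unadjusted p under 0.05, with a median difference of -0.06.

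**Figure D3:**
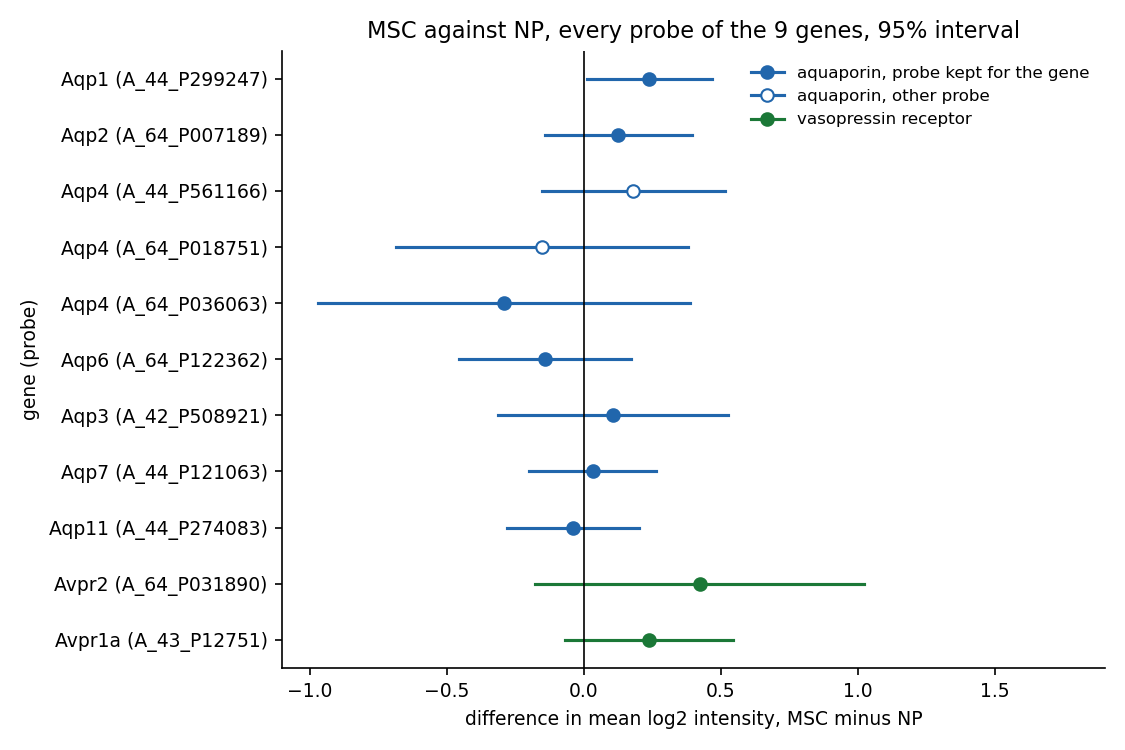
Difference in mean log2 intensity between MSC and NP kidneys for each of the 11 probes, with its 95% interval from limma over all probes, aquaporins in blue, vasopressin receptors in green and open points for the Aqp4 probes that were not kept for the gene. The interval of Aqp1 begins just above 0, the other 10 intervals hold 0, and the Aqp4 probes lie on both sides of 0.

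Some kidneys were at an end of their group for many probes. Over the 11 probes, NP 2 was the lowest or highest of the NP kidneys for 8, and MSC 4 the lowest or highest of the MSC kidneys for 10. MSC 4 was the highest for 8 of them, and MSC 2 was the lowest of the MSC kidneys for 7 probes. The centred level of the thin limb and inner medulla markers was also lowest in MSC 2 (-0.44) and highest in MSC 4 (0.56) of the 9 kidneys. The part of the medulla in the values of the 9 genes was not tested. Across the 9 kidneys, as a description of arrays that share slide and group, the genes most alike were Aqp7 and Aqp11 (Pearson's r 0.87), Avpr2 and Avpr1a (0.84) and Aqp1 and Avpr1a (0.81), and the least alike were Aqp4 and Aqp7 (-0.80).

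The genes with the pattern most like that of Aqp2 over the 9 arrays were Fbxo3 (Pearson's r 0.96), Pawr (0.95), Mcm4 (0.95), the unnamed probe A_64_P137335 (0.95) and Sppl2b (0.92). For Avpr2 they were Bcam (0.99), Prmt2 (0.96), Arhgef18 (0.95), Abcg1 (0.94) and Man1c1 (0.94). For Aqp1 they were Sel1l (0.96), Tmem55b (0.96), Ddb1 (0.95), Fam63a (0.94) and Eef2k (0.94). For Aqp7 they were the unnamed probe A_64_P161448 (0.97), Ndufs4 (0.97), Bhmt2 (0.95) and transcripts with no gene symbol in the files. These values are the highest among all other genes tested, over 9 arrays that share slide and group, and carry no test.

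The other genes of these families were mostly not above the filter. Of the aquaporins Mip, Aqp5, Aqp8, Aqp9 and Aqp12a, only Aqp8 passed, with a difference of -0.07 (FDR 0.861). Aqp5 had all spots well above background on 7 of 9 arrays, Mip on 6, Aqp9 on 1 and Aqp12a on 0. The vasopressin gene Avp, the V1b receptor Avpr1b (2 probes) and the oxytocin receptor Oxtr were well above background on 0 of 9 arrays. The oxytocin gene Oxt passed, with a difference of -0.10 (FDR 0.631).

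The path from the V2 receptor to the membrane was followed with a list of 38 genes of vasopressin-regulated water reabsorption, of which 32 were tested. Means were higher in MSC kidneys for 16 and lower for 16, and 4 with a higher and 3 with a lower mean were at an unadjusted p under 0.05, beside 6.62% and 5.11% of all genes. None passed the FDR, and the median difference was -0.005 beside -0.006 over all genes. The 4 higher became 0 with median scaling, where 11 of the 32 means were higher, 1 with the processed intensity, and 2 with 75th percentile scaling, with the replicate block and without NP 1, NP 2, MSC 1, MSC 2 or MSC 3. The 3 lower became 1 without NP 3 or MSC 3.

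Of the 7 cAMP signalling genes, those of the G protein Gnas, the adenylate cyclases and protein kinase A, 5 were tested. The mean of all 5 was lower in MSC kidneys, where 48.6% of all genes had a higher mean, and 3 of them were at an unadjusted p under 0.05, beside 5.11% of all genes. Prkx, a kinase of the protein kinase A family, measured 11.02, 11.54, 11.41, 11.25 and 11.25 in NP kidneys 1 to 5 and 10.995, 11.05, 10.95 and 10.98 in MSC kidneys 1 to 4. All but MSC 2 were below every NP kidney, and the difference was -0.30 (SE 0.11, unadjusted p 0.0180, FDR 0.353). The adenylate cyclase Adcy9 measured 9.09, 9.63, 9.40, 9.08 and 9.09 in NP kidneys and 8.99, 8.98, 8.71 and 8.99 in MSC kidneys. Here every MSC kidney was below every NP kidney, and the difference was -0.34 (SE 0.13, unadjusted p 0.0276, FDR 0.391). Adcy9 was close to the filter limit, and in MSC 3 its 8.71 lay below the limit of 8.75 there. The catalytic subunit Prkaca had a difference of -0.19 (SE 0.08, unadjusted p 0.0435, FDR 0.417), Prkacb one of -0.52 (SE 0.29, FDR 0.503) and Gnas one of -0.16 (SE 0.13, FDR 0.662), the last 2 named after their values were seen. Gnas was also close to the filter limit, and in MSC 4 its 8.82 lay below the limit of 8.85 there. Adcy6 and Adcy3 did not pass the filter. NP 2 was the highest kidney for all 5, and without it the 5 means were still lower, 2 of them at an unadjusted p under 0.05. Without NP 3 or without MSC 3 there was 1 at that p. With the brightest probe kept for each gene, 1 of the 5 means was higher in MSC kidneys, and with no filter 2 of the 7 genes then tested.

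Of 8 vesicle traffic genes, all tested, 2 had a higher mean at an unadjusted p under 0.05, beside 6.62% of all genes, both of them Rab11 small GTPases of the recycling vesicles that return Aqp2 to the membrane. With median scaling neither was at that p. Rab11b measured 11.10, 11.002, 11.18, 11.15 and 11.21 in NP kidneys 1 to 5 and 11.42, 11.42, 11.33 and 11.40 in MSC kidneys 1 to 4. All MSC kidneys were above all NP kidneys, and the difference was 0.26 (SE 0.07, unadjusted p 0.00489, FDR 0.331). Rab11a, named as the other of these 2, had a difference of 0.18 (SE 0.08, FDR 0.401). Of 12 tested genes of the motor that carries vesicles along microtubules, dynein and dynactin, 2 were at an unadjusted p under 0.05 with a higher mean, beside 6.62% of all genes, Dctn2 (0.20, FDR 0.393) and Dync1i2 (0.26, FDR 0.396). Both were named after their values were seen, and neither was at that p with median scaling. Dynll2, chosen as one of the brightest of the list, had a difference of 0.05 (FDR 0.851). Of the CREB transcription factors, which act on the Aqp2 promoter, 5 of 7 were tested and 0 were at that p.

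**Figure D4:**
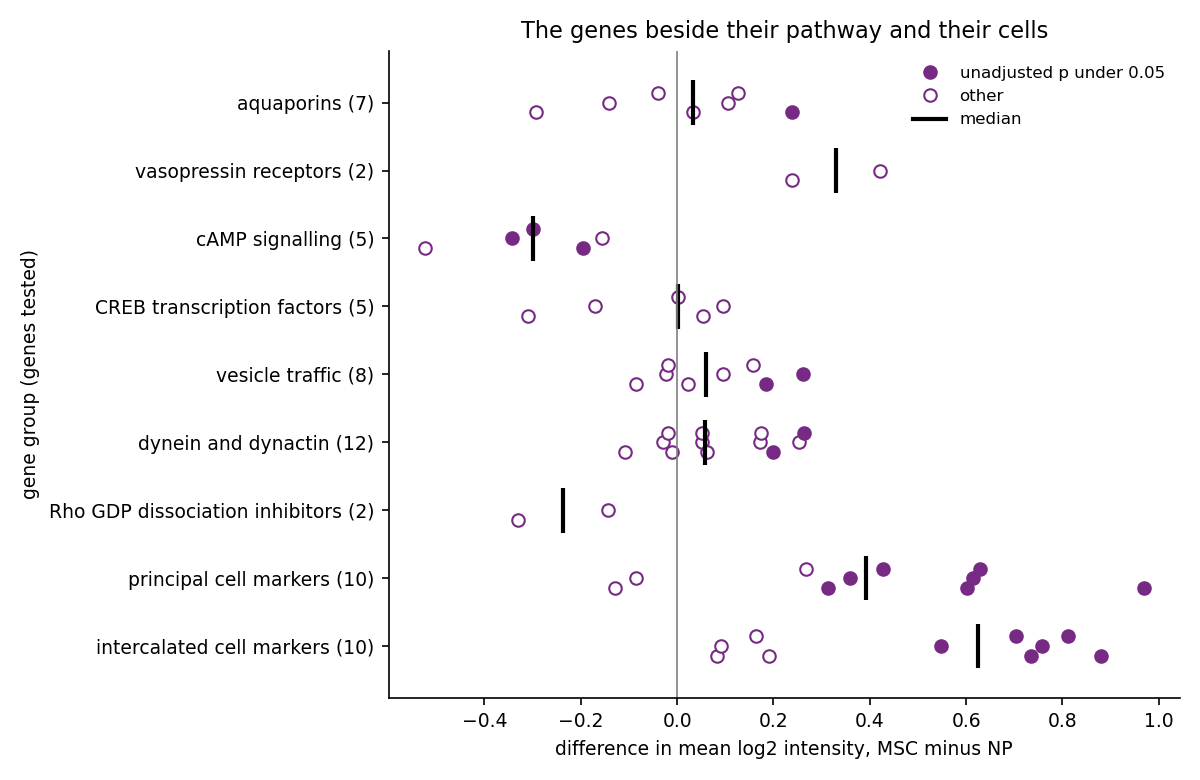
Difference in mean log2 intensity between MSC and NP kidneys for each tested gene of the aquaporins, the vasopressin receptors, the 5 roles in the list of vasopressin-regulated water reabsorption and the markers of principal and intercalated cells, with filled points for an unadjusted p under 0.05 and a bar at the median. All 5 cAMP signalling genes lie below 0, while 8 of 10 principal cell markers and 10 of 10 intercalated cell markers lie above it, and no gene shown passed the FDR.

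A second list held 37 genes with a role in the regulation of Aqp2, directly or through cAMP or transcription, of which 32 were tested. Of these 3 had a higher and 2 a lower mean at an unadjusted p under 0.05, shares close to the 6.62% and 5.11% of all genes, and the median difference was 0.04. The 3 higher became 1 with the brightest probe, the mean of probes, median scaling, without NP 2 or without MSC 4, and the 2 lower became 1 with median scaling and without NP 4, MSC 2, MSC 3 or MSC 4. The genes named next are described by their values only. The phosphodiesterase Pde4a, which breaks down cAMP, measured 9.47, 9.56, 9.63, 9.62 and 9.42 in NP kidneys 1 to 5 and 9.26, 9.29, 9.21 and 9.42 in MSC kidneys 1 to 4. Its difference was -0.24 (SE 0.08, unadjusted p 0.0124, FDR 0.331), and of the 4 MSC kidneys MSC 4 came closest to the NP kidneys. Hspa8, a chaperone that uncoats clathrin vesicles and binds Aqp2, had a difference of 0.67 (SE 0.25, unadjusted p 0.0205, FDR 0.365), with NP kidneys from 14.10 to 15.37 and MSC kidneys from 15.01 to 15.49. Stxbp2, a protein of vesicle fusion, had a difference of 0.28 (SE 0.11, FDR 0.391), and the brightest genes of the list, Stub1 and Cltc, had differences of -0.05 (FDR 0.818) and 0.14 (FDR 0.638). Of 7 tested transcription factors of the collecting duct, among them Gata2, Gata3 and Elf3, 0 were at an unadjusted p under 0.05.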

How the data were processed

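Total RNA of rat renal tissue was labelled with Cy3 by the authors and hybridized to the Agilent SurePrint G3 Rat GE array. The labels do not say which part of the kidney was taken. Per the labels and the file headers, spot intensity values were read with Agilent Feature Extraction (10.7.3.1) and deposited as mean pixel intensity, background intensity and processed intensity. The authors' deposited table holds log2 values after cyclic loess and a filter. Probe positions are those of the array design (rn4). A further MSC array was discarded by the authors for its quality and was not analysed here.

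Here the mean pixel intensity was log2 transformed, gene spots with outlier flags were left out, and gene and negative control spots were normalized by cyclic loess (limma 3.58.1 in R 4.3.3). Spots were kept if, on 4 arrays or more, they exceeded the negative controls' 95th percentile multiplied by 1.1 on the log2 scale. These were averaged by probe, and the probe of largest variance was kept for each gene. Against the log2 values that the authors deposited, Pearson's r was between 0.99987 and 0.999967 over 15713 probes. MSC and NP were compared by a two-sided limma test with Benjamini-Hochberg adjustment over 13833 genes or 15717 probes, and calls needed both an FDR below 0.05 and more than a 1.5-fold difference. Single derived values were compared by exact permutation. Steps were tested on simulated data. Lists are described by counts, with no set test. Named from each list were genes called, the 3 with the smallest unadjusted p and the 2 brightest, and for 4 of the 9 genes the 5 others most alike over the 9 arrays. The 9 genes, the lists and this rule were chosen with earlier results of these data known. Per-sample columns left unmapped numbered 0. The number of arrays limits the precision.

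The alternatives were the processed intensity, normexp, quantile normalization, scaling to the 75th percentile or to the median, no filter, a filter on well above background, the brightest probe or the mean of probes, array weights, slide or replicate number as a block, each array left out, and the deposited log2 values.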

Additional observations from a re-analysis of the deposited data

Results flagged for a closer look

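In each of 22 groups of values (11 probes in the NP and in the MSC kidneys) the gap of the farthest kidney to its neighbour was set against the range of the group by Dixon's ratio, and 2 were above the critical value, where chance gives about 1 in 20. For Aqp3, MSC 2 was the lowest of the MSC kidneys at 15.33, with a ratio of 0.861. For Aqp11, NP 2 was the lowest of the NP kidneys at 12.17, with a ratio of 0.761. Without MSC 2 the difference of Aqp3 was 0.20, and without NP 2 that of Aqp11 was -0.12.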

How the results depend on the processing

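None of the 9 genes was called higher or lower in any of the 22 other settings (0 in each), and with array weights limma called 2 other genes. The 1 gene at an unadjusted p under 0.05, Aqp1, was not at that p with the processed intensity, normexp, quantile normalization, scaling to the 75th percentile, median scaling, array weights or the deposited log2 values, each of which gave 0 genes. Leaving out each array in turn gave 0 to 2 genes: Aqp1 was at that p without NP 5 and in none of the other 8 cases, and the 2 genes without MSC 2 were Avpr2 and Avpr1a. With the replicate number as a block there were 2, Aqp1 and Avpr2. The replicate numbers share only a number: deviations of same-numbered MSC and NP kidneys correlated from -0.35 to 0.32, and 2 of 4 MSC kidneys correlated best with their own number. The direction of Aqp7 was reversed with median scaling (-0.034), without NP 2 (-0.024) and without MSC 1 (-0.029), that of Aqp4 with the brightest probe (0.18), that of Aqp3 without NP 2 (-0.021), that of Aqp2 without MSC 4 (-0.0038) and that of Aqp11 without MSC 4 (0.0027). With 1 array left out, the difference ran from -0.029 to 0.11 for Aqp7, -0.021 to 0.24 for Aqp3, -0.0038 to 0.20 for Aqp2 and -0.12 to 0.0027 for Aqp11, and also from -0.48 to -0.026 for Aqp4, -0.26 to -0.032 for Aqp6, 0.21 to 0.61 for Avpr2, 0.16 to 0.37 for Avpr1a and 0.17 to 0.29 for Aqp1. The cause was not tested. Aqp1, Avpr2, Avpr1a and Aqp6 kept their direction in all 22 settings, but not their size: Avpr1a was 0.48 with the processed intensity and with the 75th percentile and 0.13 with array weights, Aqp6 was -0.27, -0.26 and -0.079 in these, Avpr2 was 0.09 with array weights, and Aqp1 was 0.15 with median scaling. The settings of the filter and of the probe kept could not change the differences of these genes, each of which has 1 probe. Avpr1a lay near the filter limit, and Aqp6 in MSC 3, at 8.78, was just above the limit of 8.75 there.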
